A study of Mus musculus with 4 samples.

Results

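Transcripts of 10 stimulus-responsive genes were followed across the cell types of fetal mouse leg muscle. The genes were *Fos*, *Fosb*, *Jun*, *Junb*, *Atf3*, *Egr1*, *Nr4a1*, *Ier2* and *Zfp36*, which belong to the immediate early class, together with *Btg2*. They are 10 of the 32285 genes counted and were matched by symbol. The set was chosen from measured values of these same libraries, so its levels and its differences between genotypes are given as a description and are read beside the share of all genes that behaved the same way. Leg muscles were taken at E18.5, late in gestation. Wild-type fetuses (WT) gave 2 libraries, and 2 more came from knockout fetuses (KO) that lack *SYISL*, a long non-coding transcript encoded within an intron of *Synpo2*. Both genotypes came from the same litter after a mating of heterozygous parents, and the number of fetuses behind each library was not stated. *SYISL* itself was not analysed here, so the deletion was not checked. Every library was made after digestion with 0.25% trypsin at 37 °C for 40 min, with cells collected every 20 min, and undigested tissue was not analysed here.

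Immediate early genes are transcribed within minutes of a stimulus, without new protein synthesis, and their transcripts decay quickly. *Fos*, *Fosb*, *Jun* and *Junb* encode subunits of the dimeric transcription factor AP-1. *Atf3* encodes a stress-induced factor that can pair with Jun proteins, *Egr1* a zinc finger factor induced by growth factors, and *Nr4a1* an orphan nuclear receptor. *Zfp36* encodes tristetraprolin, which binds AU-rich transcripts and speeds their decay, and *Ier2* encodes a small nuclear protein of the same early response. *Btg2* encodes an antiproliferative protein that recruits the deadenylase complex to mRNA and is also a target of p53. Enzymatic digestion of muscle is known to induce many of these genes in the cells that are released, which is why a comparison within one cell type must be read beside the other cell types.

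Promoter sequences of *Btg2*, *Fos* and *Zfp36* are shown because these genes represent 3 different combinations of the response motifs searched. The sequences are from RefSeq (GRCm38.p6) and run 5′ to 3′ on the strand of the gene, with positions counted from the RefSeq start of the gene. The first lies on the minus strand at chr1:134079256-134079355, 200 to 101 bases upstream of *Btg2*, and its capitals mark a full cyclic AMP response element. The second lies on the plus strand at chr12:85473740-85473839, 150 to 51 bases upstream of *Fos*, and its capitals mark 2 matches to TGACG, the 5-base core of that element. The third lies on the minus strand at chr7:28379229-28379328, 100 to 1 bases upstream of *Zfp36*, and its capitals mark a CArG box, the motif bound by serum response factor.
Btg2: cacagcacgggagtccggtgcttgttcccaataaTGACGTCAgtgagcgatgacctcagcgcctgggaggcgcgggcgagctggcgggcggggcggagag
Fos: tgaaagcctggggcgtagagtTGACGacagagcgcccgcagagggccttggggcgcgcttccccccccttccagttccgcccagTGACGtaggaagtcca
Zfp36: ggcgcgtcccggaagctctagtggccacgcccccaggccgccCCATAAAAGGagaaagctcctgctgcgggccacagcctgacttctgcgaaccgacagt

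Promoter windows of 250 bases before to 50 bases after the start were matched by symbol for 8 of the 10 genes, all but *Egr1* and *Ier2*. On both strands of these windows, TGACGTCA was found only in *Btg2*, whereas 1.79% of 32851 promoters held it. Its core TGACG, which every TGACGTCA also contains, was found in 6 of the 8 windows (*Fos*, *Fosb*, *Junb*, *Atf3*, *Nr4a1* and *Btg2*) and in 20.8% of all promoters. TGANTCA, with any base at N, was in none of the 8 windows and in 7.81% of all promoters. This pattern is broader than the AP-1 motif, in which N is C or G, and variants that differ at other bases were not searched. The CArG box was in *Zfp36* alone and in 1.63% of all promoters. These matches describe the letters in the windows and do not show binding. Sequence outside the windows was not searched, so a gene without a match here may still hold the motif further from its start.

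The libraries held 9528 to 11670 cells and 109653824 to 126257094 UMIs each, and 36969 of 41741 cells passed the limits on genes, UMIs and mitochondrial reads (16692 WT and 20277 KO). The median depth of a kept cell was 10371 and 11427 UMIs for WT replicates 1 and 2 and 9118 and 9727 UMIs for the KO replicates. *Xist*, a transcript of the inactive X chromosome of female cells, gave 131038 UMIs in KO replicate 2 and at most 5 in any other library, so that library stands apart. Cell barcodes shared by 2 libraries numbered 21 to 41 per pair. Cells were assigned to 10 classes from marker genes: 18623 fibro-adipogenic progenitor-like (FAP-like), 6736 myogenic-like, 2337 tenocyte-like, 2319 chondrocyte-like, 1830 glial-like, 1737 smooth muscle or pericyte-like, 1109 macrophage-like, 1329 endothelial-like, 289 mast-like and 214 neutrophil-like cells, with 446 left unnamed. In each class every marker exceeded 2-fold of the median of the other classes and none was at 0. Because the classes were named from these markers, this was largely fixed in advance. A median also hides related classes. The summed FAP markers were 36284 to 38917 CPM in tenocyte-like cells, above the 26768 to 31116 CPM in FAP-like cells. Neutrophil-like cells numbered 25 in each KO library and were not tested. The 9 classes compared below had at least 50 cells in each library, with 59 to 85 mast-like cells per library and at least 181 cells per library in the other 8 classes. Levels are given in CPM, the UMIs of a gene scaled to 1000000 UMIs of that class in that library. Per-library values are listed as WT replicates 1 and 2, then KO replicates 1 and 2.

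The members were detected in every class, and their levels differed more between classes than between libraries of one class. Summed over the 10 genes, endothelial-like cells were lowest with 2537 to 3164 CPM over the 4 libraries. Smooth muscle or pericyte-like cells followed with 4605 to 5329 CPM, and both classes stood apart from their neighbours in the order of means. Chondrocyte-like cells were highest with 10652 to 12765 CPM and overlapped tenocyte-like cells (9004 to 11209 CPM). Mast-like, FAP-like, glial-like, macrophage-like and myogenic-like cells lay between, with means of 8644, 8589, 8514, 8103 and 7598 CPM, and each overlapped the next in this order. The mean summed level of the highest class was 4.16-fold that of the lowest.

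Among the AP-1 genes, the Fos family and *Jun* were lowest in endothelial-like cells, where *Fos* averaged 458 ± 31.0 CPM (SD, n = 4 libraries), *Fosb* 102 ± 13.3 CPM and *Jun* 486 ± 31.0 CPM. *Fos* reached 2814 ± 336 CPM in chondrocyte-like cells, a 6.14-fold span, and the libraries of chondrocyte-like cells overlapped those of glial-like cells (2414 ± 264 CPM), as the latter did those of tenocyte-like cells (2313 ± 159 CPM). The tenocyte-like libraries then stood apart from the FAP-like ones (1806 ± 142 CPM). *Fosb* was also highest in chondrocyte-like cells (806 ± 79.9 CPM) and there did not overlap the next class. *Jun* was highest in tenocyte-like cells (2051 ± 157 CPM), but its 6 highest classes overlapped one after the other. *Junb* had one of the narrowest ranges, 3.00-fold from 481 ± 80.0 CPM in endothelial-like to 1441 ± 177 CPM in mast-like cells.

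*Atf3* and *Zfp36* were highest in macrophage-like cells, a class in the lower part of the order for *Fos*. *Atf3* reached 929 ± 143 CPM there, followed by glial-like cells with 531 ± 88.1 CPM, and neither overlapped its neighbours. Its lowest level, 39.9 ± 17.0 CPM in mast-like cells, was 23.3-fold below the highest. *Zfp36* reached 1108 ± 207 CPM in macrophage-like cells, and those libraries overlapped the mast-like ones (711 ± 161 CPM). Its endothelial-like mean of 158 ± 13.1 CPM was the lowest but overlapped myogenic-like cells.

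The remaining members shared their highest class with *Fos*. *Egr1* (1944 ± 189 CPM), *Nr4a1* (580 ± 90.4 CPM), *Ier2* (993 ± 112 CPM) and *Btg2* (893 ± 125 CPM) were each highest in chondrocyte-like cells, and only *Nr4a1* did not overlap the next class there. *Egr1* was high in myogenic-like cells (1665 ± 274 CPM) and low in macrophage-like cells (475 ± 110 CPM). *Ier2* had the narrowest range, 2.70-fold, and its 4 lowest classes overlapped one after the other. *Btg2* spanned 12.5-fold. It was lowest in mast-like cells (71.6 ± 50.9 CPM), which held high levels of *Junb* and *Jun*, and the mast-like libraries stood apart from endothelial-like cells (261 ± 51.1 CPM).

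**Figure D1:**
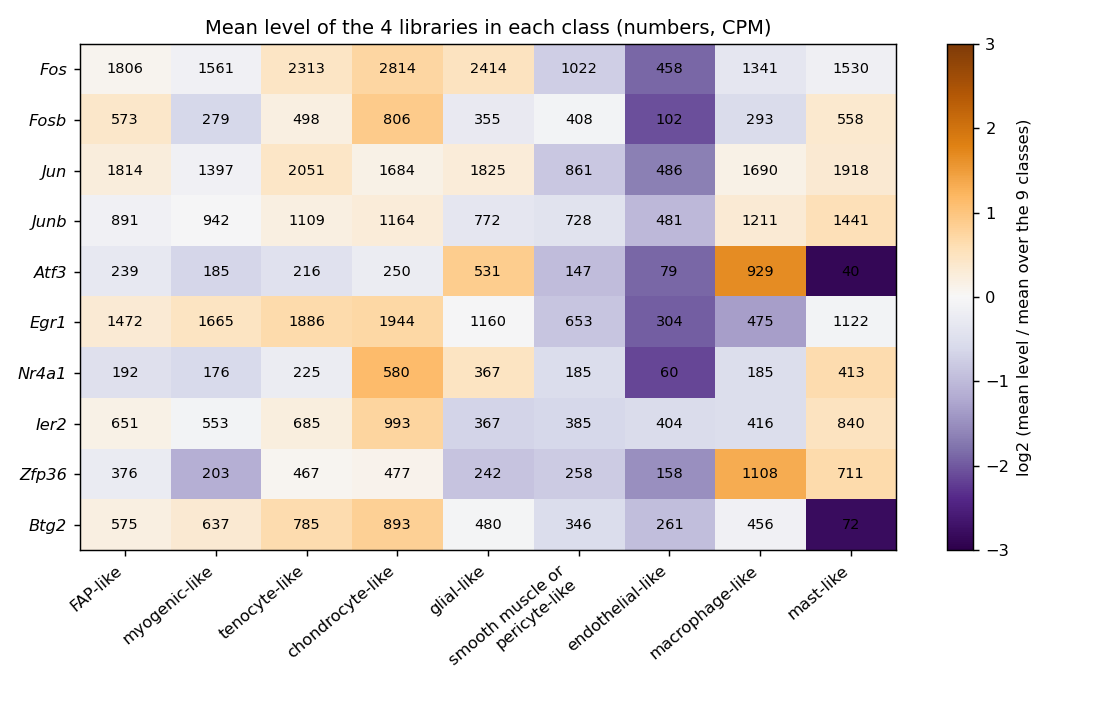
Mean level of each gene over the 4 libraries in each of 9 cell classes. Numbers are CPM, and the color is the log2 ratio to the gene's mean over the classes. Endothelial-like cells were low for most genes, macrophage-like cells were high for Atf3 (929 CPM) and Zfp36 (1108 CPM), and mast-like cells were low for Atf3 (39.9 CPM) and Btg2 (71.6 CPM).

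Within a class most cells held transcripts of these genes. After each cell was thinned to 2000 UMIs, 1.41% to 2.51% of FAP-like cells and 1.08% to 1.96% of myogenic-like cells per library had no UMI of any member, against 8.09% to 18.8% of endothelial-like cells. The 10% of FAP-like cells with the most member UMIs held 22.9% to 25.3% of them, and the corresponding share in endothelial-like cells was 31.2% to 39.1%. A *Jun* UMI was found in 88.5% to 92.0% of FAP-like cells with a *Fos* UMI and in 58.1% to 61.7% of those without. A *Btg2* UMI was found in 52.9% to 65.1% of FAP-like cells with *Fos* and in 27.9% to 34.9% of those without. In myogenic-like cells these *Btg2* shares were 61.7% to 72.2% and 48.5% to 65.0%. No class is known to lack these genes, so free RNA in the droplets was judged against the lowest class: 5.88% to 16.7% of mast-like cells had a *Btg2* UMI at the same thinned depth (median before thinning 10379 to 11980 UMIs, against 9112 to 11970 in FAP-like cells).

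Myogenic-like cells were divided into 3598 progenitor-like, 1769 cycling, 1257 myoblast-like and 112 myotube-like cells to follow the genes along the stages. Every member was lower in myoblast-like than in progenitor-like cells in 4 of 4 libraries, but by unequal amounts. *Fosb* in myoblast-like cells was 22.7% to 32.4% of its level in progenitor-like cells, *Zfp36* 25.8% to 30.3%, *Nr4a1* 31.3% to 40.8% and *Fos* 33.7% to 40.9%. *Atf3* (44.1% to 64.5%), *Junb* (62.6% to 68.0%) and *Btg2* (65.1% to 72.1%) were intermediate. *Ier2* (72.9% to 79.3%), *Egr1* (78.4% to 84.8%) and *Jun* (83.9% to 95.4%) were least reduced. Cycling cells did not simply lie between these stages. *Egr1* in cycling cells was 122% to 137% of its level in progenitor-like cells and *Jun* 105% to 126%, whereas *Zfp36* was 53.8% to 68.1% and *Btg2* 71.2% to 75.6%. Both patterns were present in each WT and each KO library. Myotube-like cells numbered 14 to 47 per library and were not compared.

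**Figure D2:**
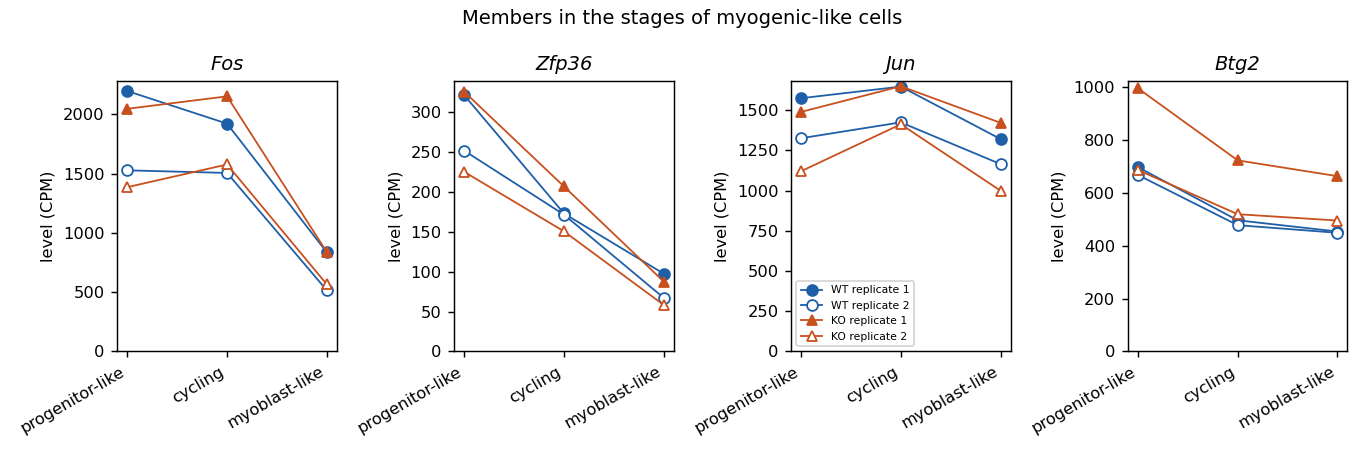
Levels (CPM) of 4 genes in progenitor-like, cycling and myoblast-like cells of each library (circles, WT; triangles, KO; filled, replicate 1; open, replicate 2). Fos and Zfp36 fall steeply towards myoblast-like cells, Jun changes least, and Btg2 is lower in both cycling and myoblast-like cells.

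Levels of several members also moved together from library to library. Over the 36 points given by 9 classes and 4 libraries, with each class centred on its own mean, the 5 genes of 9660 with the highest Pearson correlation to *Fos* were the members *Jun* (0.85), *Zfp36* (0.82) and *Egr1* (0.81) and the non-members *Dusp1* (0.84), a phosphatase of the MAP kinase pathway, and *Dnajb1* (0.81), a heat shock co-chaperone. *Junb* was closest to *Ier2* (0.80). Other pairs of members moved together little, such as *Fos* with *Nr4a1* (0.04) and *Jun* with *Atf3* (0.23). These points share 4 libraries and are not independent. The library pattern differed between classes. In myogenic-like cells *Fos* measured 1829, 1297, 1835 and 1284 CPM, so replicate 1 was above replicate 2 in each genotype. The same held there for every member but *Nr4a1*, and what the replicate number stands for is not given by the labels. KO replicate 1 had the highest summed level in 6 of 9 classes.

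The comparison of KO with WT asked whether the knockout moved these genes in some cell types and, if so, whether by more than in the others. For each class, the UMIs of each library were added up, and edgeR's quasi-likelihood test was run across all genes, with Benjamini-Hochberg adjustment. At an adjusted p under 0.05, 1 of the 90 pairs of a member and a class passed, which was *Btg2* in smooth muscle or pericyte-like cells. The background was low as well: 0.0715% of genes passed in smooth muscle or pericyte-like cells, 0.0425% in endothelial-like cells, 0.0840% in mast-like cells and 0% in each of the FAP-like, myogenic-like, tenocyte-like, chondrocyte-like, glial-like and macrophage-like cells, as well as 0% in all kept cells together and in each of the progenitor-like, cycling and myoblast-like stages. At an unadjusted p under 0.05 edgeR marked 563 of 18365 genes in FAP-like and 554 of 14711 in myogenic-like cells, and DESeq2 called 7 and 2 genes there at its adjusted p. With 2 libraries against 2, an exact two-sided permutation test cannot give a p below 0.333. The p-values measure the spread between these libraries, which may be technical.

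In FAP-like cells 7 of the 9 immediate early genes were slightly higher in both KO libraries than in both WT libraries. *Fos* measured 1671, 1708, 1976 and 1868 CPM, so both KO libraries were above both WT libraries. edgeR gave a log2 fold change of 0.22 ± 0.06 (SE; unadjusted p = 0.0113, adjusted p = 0.999). *Zfp36* measured 317, 364, 443 and 382 CPM and *Atf3* 199, 229, 271 and 258 CPM, with log2 fold changes of 0.32 and 0.34. *Junb* (0.26), *Ier2* (0.25), *Egr1* (0.16) and *Jun* (0.14) were also separated by genotype, whereas *Nr4a1* (162, 208, 197 and 202 CPM) and *Fosb* (608, 550, 586 and 547 CPM) overlapped. The KO mean of *Fosb* was 567 CPM and the WT mean 579 CPM, and its log2 fold change was 0.01 with edgeR's scaling. Counting *Btg2*, 8 of 10 members had both KO libraries above both WT libraries, compared with 8.98% of all genes tested in this class. An unadjusted p under 0.05 was reached by 6 of 10, compared with 3.07% of genes. The log2 fold change was above 0 for 10 of 10 members and for 49.6% of all genes, and the median of the members was 0.24, beside 0.00 for all genes. *Fos* was seen in 82.0% and 83.2% of thinned WT cells and in 85.6% and 86.8% of thinned KO cells.

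In myogenic-like cells the same genes did not separate the genotypes. *Egr1* measured 1937, 1521, 1850 and 1354 CPM and *Jun* 1543, 1319, 1526 and 1200 CPM, and each KO library lay close to the WT library with the same number. The log2 fold changes of the 9 genes ranged from -0.12 (*Fosb*) to 0.19 (*Atf3*: 186, 165, 219 and 170 CPM), and all 9 overlapped between genotypes. The sign of 8 of these log2 fold changes, all but that of *Atf3*, depended on which library was left out. Only *Btg2* had both KO libraries above both WT libraries (10.6% of genes did so in this class) and only *Btg2* had an unadjusted p under 0.05 (3.77% of genes). The log2 fold change was above 0 for 5 of 10 members (50.6% of genes), and their median was 0.02.

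Smooth muscle or pericyte-like cells resembled FAP-like cells. There 9 of 10 members, all but *Fosb*, had both KO libraries above both WT libraries (15.2% of genes), and 6 of 10 had an unadjusted p under 0.05 (5.24% of genes). *Zfp36* measured 226, 238, 285 and 282 CPM (log2 fold change 0.31 ± 0.08), *Ier2* 356, 348, 421 and 416 CPM (0.27 ± 0.07) and *Fos* 1006, 906, 1100 and 1075 CPM (0.20 ± 0.08). All 10 members had a log2 fold change above 0 (50.5% of genes), with a median of 0.17. The summed level of 12 FAP markers in this class was 2969 and 2466 CPM in WT and 4374 and 3410 CPM in KO, so it was also higher in both KO libraries, and its part in these differences was not tested.

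In endothelial-like and macrophage-like cells most members were also higher in KO on average, although few were separated by library. The log2 fold change was above 0 for 10 of 10 members in endothelial-like cells (49.7% of genes) with a median of 0.16, and for 9 of 10, all but *Nr4a1*, in macrophage-like cells (50.4% of genes) with a median of 0.17. In macrophage-like cells *Egr1* measured 464, 343, 612 and 480 CPM (0.46 ± 0.17), and *Egr1*, *Ier2* and *Btg2* were higher in both KO libraries (12.6% of genes), with *Egr1* and *Btg2* at an unadjusted p under 0.05 (3.95% of genes). In endothelial-like cells *Fos* and *Btg2* were higher in both KO libraries (13.8% of genes), and *Btg2* had an unadjusted p under 0.05 (3.58% of genes).

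In the remaining classes the 10 members gave no common direction. The log2 fold change was above 0 for 3 of 10 members in chondrocyte-like cells (48.7% of genes), 3 of 10 in tenocyte-like cells (50.6% of genes), 4 of 10 in glial-like cells (49.6% of genes) and 6 of 10 in mast-like cells (49.0% of genes). In chondrocyte-like cells *Fos* (3300, 2745, 2685 and 2529 CPM), *Fosb* and *Jun* were lower in both KO libraries than in both WT libraries, with log2 fold changes of -0.23, -0.23 and -0.17, and 15.7% of all genes were lower in both. *Btg2* was the member with both KO libraries above both WT libraries (13.5% of genes). In tenocyte-like cells *Nr4a1* was lower in both KO libraries (log2 fold change -0.18, with 18.3% of genes lower in both) and no member was higher in both (11.1% of genes). In glial-like cells *Fosb* was lower in both KO libraries (-0.19, with 17.5% of genes lower in both) and *Btg2* higher (14.6% of genes). No member reached an unadjusted p under 0.05 in these 3 classes, in which 2.72%, 2.42% and 3.77% of genes did. In mast-like cells *Junb*, *Atf3*, *Nr4a1*, *Ier2* and *Btg2* were higher in both KO libraries (18.8% of genes), and 4 members had an unadjusted p under 0.05 (7.01% of genes). *Nr4a1* in mast-like cells measured 275, 376, 498 and 504 CPM (0.62 ± 0.15). The summed FAP markers in mast-like cells were 943, 702, 2458 and 2311 CPM, and their part in these differences was not tested. In the untested neutrophil-like cells 4 members were lower in both KO libraries (18.9% of 3702 genes) and 1 was higher in both (19.5% of genes).

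**Figure D3:**
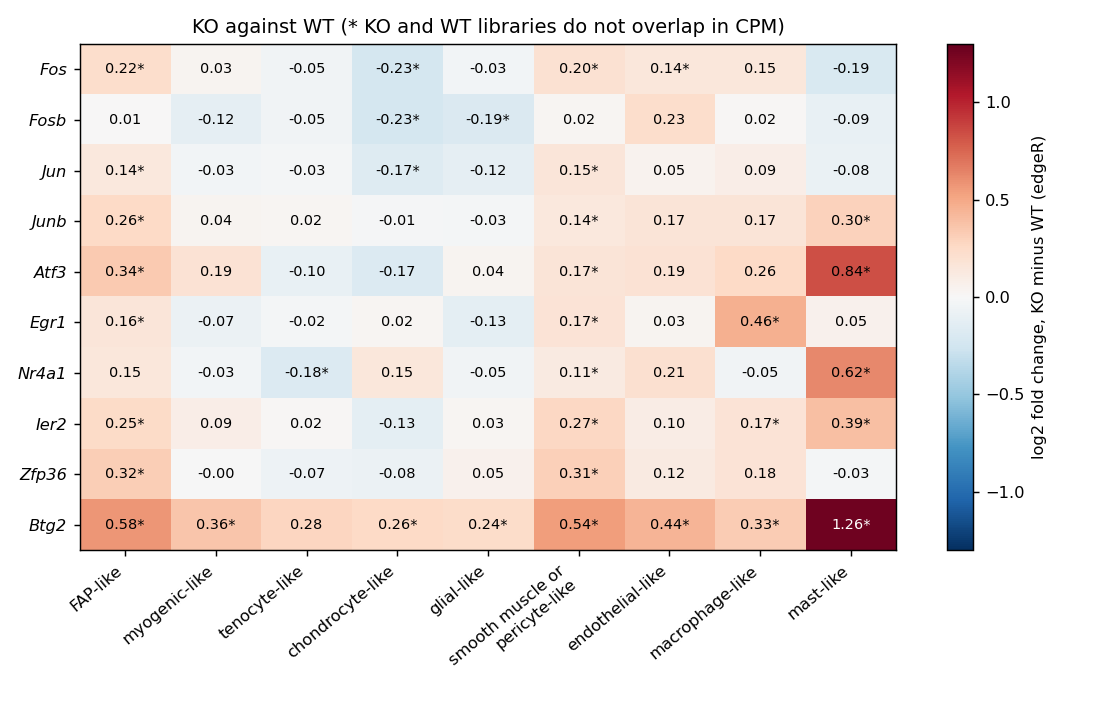
Log2 fold change, KO minus WT (edgeR), of each gene in each class. An asterisk marks pairs in which the KO and WT libraries do not overlap in CPM. Btg2 is positive in each of the 9 columns, from 0.24 to 1.26, while the other genes are all positive in FAP-like, smooth muscle or pericyte-like and endothelial-like cells, all but Nr4a1 positive in macrophage-like cells, and mixed elsewhere.

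*Btg2* differed from the 9 other members in the number of classes in which the genotypes were separated. Both KO libraries were above both WT libraries in 8 of 9 classes, and the log2 fold change was above 0 in 9 of 9. The count was 4 classes for *Ier2*, 3 for *Fos*, *Junb*, *Atf3* and *Egr1*, 2 for *Jun*, *Nr4a1* and *Zfp36* and 0 for *Fosb*. Of the 9660 genes that averaged 10 CPM or more, 4 (0.0414%) were separated upwards in at least 8 classes, namely *Btg2*, *Map1lc3a*, *Naca* and *Ddx5*, and 7 genes were separated downwards in 8. Among the same 9660 genes, 343 were separated upwards in exactly 4 classes, 825 in 3, 1931 in 2 and 3046 in 0. For *Btg2* the nearest KO and WT libraries were close in myogenic-like cells (582 and 579 CPM) and in glial-like cells (509 and 506 CPM). As the classes come from the same 4 libraries they are not independent repeats. *Btg2* was chosen from these values and its place is a description.

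In FAP-like cells *Btg2* measured 431, 506, 701 and 661 CPM. Both KO libraries were well above both WT libraries. edgeR gave a log2 fold change of 0.58 ± 0.09 (SE; unadjusted p = 0.000502, adjusted p = 0.999). Only 3 of 18365 genes had a smaller p. DESeq2 called it at an adjusted p of 0.000165. After thinning, 46.8% and 52.5% of WT FAP-like cells had a *Btg2* UMI, as did 61.3% and 60.0% of KO cells. Without thinning these shares were 84.0%, 87.2%, 88.8% and 89.3%.

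In smooth muscle or pericyte-like cells *Btg2* measured 283.9, 284.3, 394 and 422 CPM. The WT libraries were almost equal and both KO libraries were higher, with a log2 fold change of 0.54 ± 0.08 (edgeR adjusted p = 0.0170). *Btg2* was 1 of 9 genes called among 12584. The call was lost with looser limits on cells, where the log2 fold change was 0.44 and the adjusted p 0.128.

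Myogenic-like cells gave a smaller and less even difference. *Btg2* measured 579, 555, 832 and 582 CPM, so that KO replicate 2 lay just above WT replicate 1, with a log2 fold change of 0.36 ± 0.13 (edgeR unadjusted p = 0.0280, adjusted p = 0.961). Without KO replicate 1 the log2 fold change was 0.10, and without KO replicate 2 it was 0.58. In progenitor-like cells the levels were 698, 669, 997 and 687 CPM and overlapped, in cycling cells 497, 478, 724 and 520 CPM, and in myoblast-like cells 454, 449, 664 and 496 CPM. In each stage KO replicate 1 was the highest library.

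In endothelial-like cells *Btg2* measured 207, 237, 275 and 325 CPM (log2 fold change 0.44 ± 0.11, edgeR adjusted p = 0.438). The summed FAP markers there were 1665, 1177, 2193 and 2052 CPM and the summed hemoglobin and other erythroid markers 307, 276, 795 and 4763 CPM, higher in both KO libraries as well, and their part in the difference was not tested. Macrophage-like cells had 423, 392, 524 and 483 CPM of *Btg2* (0.33 ± 0.10), chondrocyte-like cells 898, 719, 1011 and 945 CPM (0.26 ± 0.14) and glial-like cells 378, 506, 528 and 509 CPM (0.24 ± 0.13). The gap between the nearest KO and WT libraries was narrow in the glial-like cells. Tenocyte-like cells overlapped, with 756, 676, 1024 and 685 CPM (0.28 ± 0.17). Mast-like cells had the lowest levels and the largest log2 fold change, 50.7, 33.2, 56.2 and 147 CPM (1.26 ± 0.46). That value rested on KO replicate 2, without which it was 0.43, and it was -0.03 when the listed genes were allowed to shape the clusters. In all kept cells together *Btg2* measured 479, 519, 692 and 633 CPM (0.45 ± 0.06, edgeR adjusted p = 0.946).

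**Figure D4:**
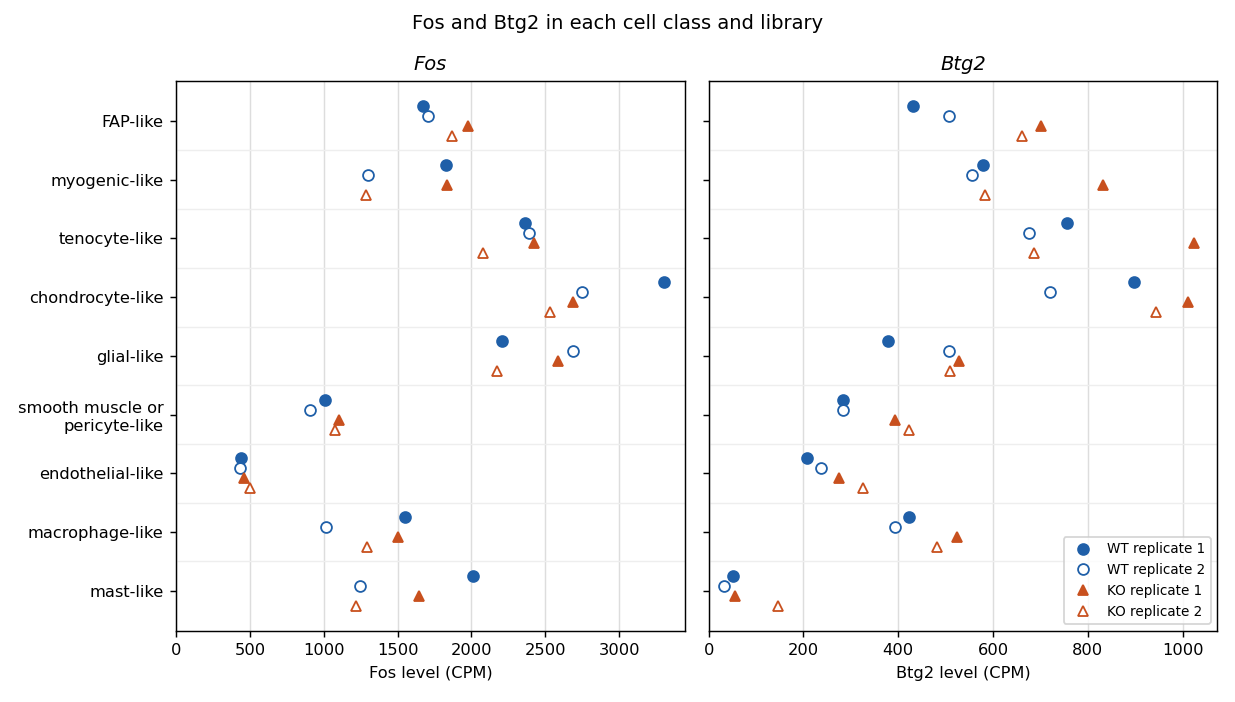
Level (CPM) of Fos and of Btg2 in each class and library (circles, WT; triangles, KO; filled, replicate 1; open, replicate 2). In myogenic-like cells Fos follows the replicate number (1829 and 1835 CPM against 1297 and 1284 CPM), whereas Btg2 is higher in both KO libraries than in both WT libraries in every class but tenocyte-like cells.

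To set *Btg2* against the other members in the same cells, its UMIs were divided by those of these 9 genes. In FAP-like cells there were 5.82 and 6.50 *Btg2* UMIs per 100 in the WT libraries, and this ratio was 8.05 and 8.11 in the KO libraries. Myogenic-like cells gave 7.40 and 8.81 in WT and 10.6 and 9.94 in KO, and tenocyte-like cells, whose *Btg2* levels had overlapped, 7.72 and 7.13 in WT and 10.1 and 8.24 in KO. The KO libraries were thus higher in these classes relative to the other members too. Chondrocyte-like (7.57, 6.98, 9.22 and 9.73), glial-like (5.12, 5.57, 6.37 and 6.91), smooth muscle or pericyte-like (6.33, 6.58, 7.98 and 8.70), endothelial-like (8.86, 9.31, 11.4 and 11.4) and mast-like cells (0.548, 0.445, 0.576 and 1.87) were also separated. Macrophage-like cells overlapped with 5.15, 6.19, 6.08 and 6.50. The ratio was therefore higher in both KO libraries in 8 of 9 classes. It is a description, since it uses the values by which the genes were chosen.

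**Figure D5:**
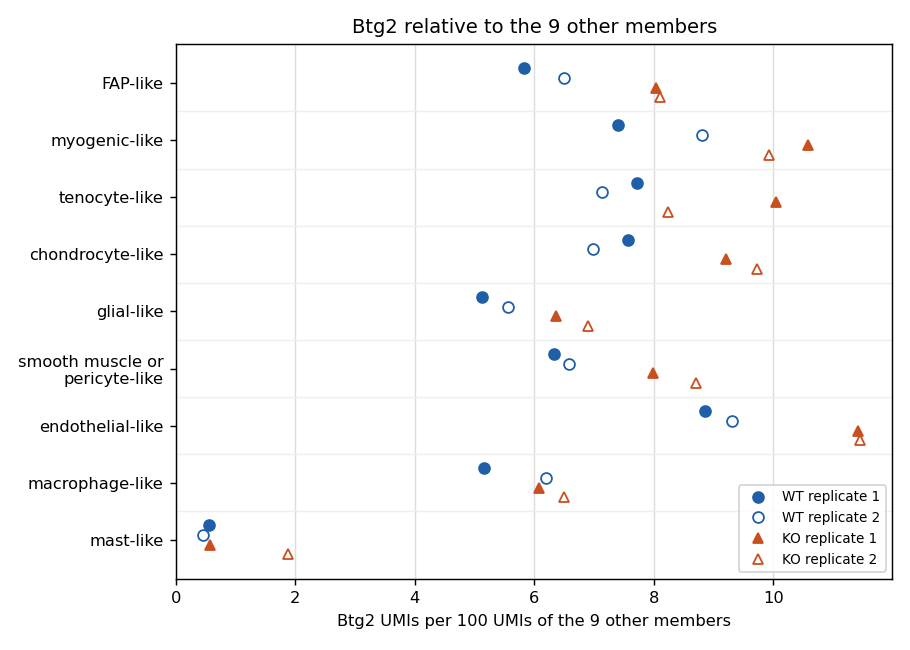
Btg2 UMIs per 100 UMIs of the 9 other members in each class and library (circles, WT; triangles, KO; filled, replicate 1; open, replicate 2). KO libraries lie to the right of WT libraries in 8 of 9 classes, for example 8.05 and 8.11 against 5.82 and 6.50 in FAP-like cells, and overlap in macrophage-like cells.

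Whether a genotype difference in one class exceeded the mean difference in the other 8 was tested in a single edgeR fit of 16282 genes with the library as a term. edgeR called 0 members in any class at an adjusted p under 0.05, and 6 of 90 pairs of a member and a class had an unadjusted p under 0.05, as did 594 to 1375 of the 16282 genes per class. Over all genes, calls made up 0.0184% of genes for FAP-like, 0.00614% for chondrocyte-like and 0.430% for mast-like cells, and 0% for each of the myogenic-like, tenocyte-like, glial-like, macrophage-like, endothelial-like and smooth muscle or pericyte-like cells. The differences of the members ranged from -0.42 (*Atf3* in chondrocyte-like cells) to 0.97 (*Btg2* in mast-like cells, unadjusted p = 0.0356, edgeR adjusted p = 0.529). The smallest adjusted p was 0.156, for *Nr4a1* in mast-like cells (0.66 ± 0.19). For *Btg2* the difference was 0.08 ± 0.20 in FAP-like, 0.06 ± 0.21 in smooth muscle or pericyte-like and -0.13 ± 0.20 in myogenic-like cells. In each of these the mean of the other classes included mast-like cells with equal weight. There the log2 fold change of *Btg2* was 1.26 and rested on KO replicate 2, so these differences do not show that the classes were alike. The lowest difference for *Btg2* was -0.28 ± 0.21 in glial-like cells. In a fit of myogenic-like and FAP-like cells alone, the KO effect of all 10 members was lower in myogenic-like cells, by -0.12 (*Fosb*) to -0.34 (*Zfp36*), and 0 of 18095 genes were called by edgeR. For *Btg2* that difference was -0.25 ± 0.13 (edgeR unadjusted p = 0.0869). The smallest unadjusted edgeR p of a member in this fit was 0.0532, for *Zfp36*. The share of all genes with a lower KO effect in myogenic-like cells is not given here, so the direction of the 10 members has no background. A difference that all classes share cannot be told apart here from one that arose in each library during digestion, because genotype and library coincide and undigested cells were not analysed here.

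The genes whose library pattern was most like that of *Btg2* were not the AP-1 genes. Over the same 36 points the 5 highest correlations were with *Atf4* (0.85), a factor of the integrated stress response, *Socs3* (0.84), an inhibitor of cytokine signalling, *Map1lc3a* (0.83), an autophagy protein, *Marcksl1* (0.78) and the chemokine *Cxcl10* (0.77). Among the members the closest was *Atf3* (0.69), followed by *Junb* (0.61). The correlation of *Btg2* with *Fos* was 0.15, place 2360 among the genes ranked by likeness to *Fos*, and that with *Jun* was 0.00. Each of the 36 points counted equally. *Btg2* had its widest relative range in mast-like cells (33.2 to 147 CPM), which numbered 59 to 85 per library. The part of that class in these correlations was not tested. Since *Btg2* was chosen for its values in these libraries, the ranking is a description of likeness only.

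Another 61 genes in 5 lists, which the choice of the 10 members did not use, were read in the same fits. These lists were also chosen with earlier results of these data known, so their values are a description and not an independent check. When KO was compared with WT within a class, edgeR called 0 of the 61 genes at an adjusted p under 0.05 in any of the 9 classes. When a class was set against the other 8, edgeR called 1 pair of a listed gene and a class, *Klf4* in mast-like cells. In FAP-like cells 12 of 16 other immediate early transcription factors had a log2 fold change above 0 (49.6% of all genes tested). Of these 16 genes, 9 had both KO libraries above both WT libraries (8.98% of all genes) and the median was 0.21. *Klf2* measured 675, 797, 896 and 996 CPM (0.40 ± 0.09) and *Myc* 39.4, 48.8, 52.8 and 56.8 CPM (0.35 ± 0.11). Both had higher values in each KO library than in either WT library. Of 17 feedback or secreted early genes, 16 were above 0, 12 were separated upwards and the median was 0.19. *Gadd45g*, a growth arrest gene, measured 69.6, 74.8, 90.6 and 95.4 CPM (0.40 ± 0.07) and *Socs3* 173, 198, 234 and 225 CPM (0.35 ± 0.08). Unadjusted edgeR p-values under 0.05 were reached by 8 of the 16 and 9 of the 17 genes, compared with 3.07% of all genes.

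Medians in FAP-like cells were smaller for the 3 other lists, of heat shock genes, p53 targets and relatives of *Btg2* and *Zfp36*. Of 11 heat shock genes, 9 were above 0 (49.6% of all genes) with a median of 0.12, led by *Dnaja1* (0.20, separated) and *Hspb1* (0.20, overlapping). Of 11 p53 targets, 10 were above 0 with a median of 0.05, and the pair with the largest values was *Gadd45a* (0.29, separated) and *Cdkn1a*, the inhibitor of cyclin-dependent kinases (44.9, 57.9, 49.2 and 62.6 CPM, overlapping). All 6 relatives of *Btg2* and *Zfp36* were above 0 with a median of 0.07, and the closest paralog *Btg1* measured 225, 230, 249 and 241 CPM (0.15 ± 0.06). The 9 members other than *Btg2* lay in the range of the early gene lists, and *Btg2* at 0.58 was above all 61 of these genes in FAP-like cells.

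In myogenic-like cells the medians were 0.13 for the 16 transcription factors and 0.14 for the 17 feedback or secreted genes. The log2 fold change was above 0 for 13 of the 16 and 14 of the 17 (50.6% of all genes). An unadjusted edgeR p under 0.05 was reached by 3 and 1 of them (3.77% of all genes). Of each list 4 genes were separated upwards, compared with 10.6% of all genes in this class. *Gadd45g* (100, 84.5, 121 and 111 CPM, 0.37 ± 0.10) and *Cebpb* (62.6, 59.9, 78.1 and 66.7 CPM, 0.28 ± 0.09) were higher in both KO libraries, whereas *Socs3* (0.27) and *Cebpd* (0.22) overlapped. *Hspb1* (0.28) and *Hspa1b* (-0.34) overlapped among the heat shock genes, whose median was 0.12. Among the p53 targets, with a median of 0.11, *Bbc3* (0.30) was separated and *Gadd45a* (0.31) was not. *Btg1* measured 346, 363, 390 and 378 CPM (0.16 ± 0.06) and *Zfp36l1* overlapped (0.09), in a family whose median was 0.05. In smooth muscle or pericyte-like cells 9 of 16 transcription factors and 9 of 17 feedback genes were separated upwards (15.2% of all genes), with medians of 0.19 and 0.11. The smallest adjusted p of any listed gene was that of *Klf2* in this class (174, 193, 256 and 239 CPM, 0.45 ± 0.08, edgeR adjusted p = 0.0691). Tenocyte-like cells gave medians of 0.01 and 0.00 for these 2 lists, with 8 of 16 and 10 of 17 genes above 0. These counts were 13 of 16 and 13 of 17 in chondrocyte-like, and 10 of 15 and 10 of 17 in glial-like cells. They were 13 of 14 and 12 of 15 in mast-like, 14 of 15 and 13 of 17 in endothelial-like, and 8 of 16 and 15 of 16 in macrophage-like cells. Over all genes tested the share above 0 was 48.7% to 50.6% per class.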

How the data were processed

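Leg muscles of WT and *SYISL* KO fetuses were profiled with Chromium 3′ v3 chemistry (2 libraries per genotype). Per the submitters' processing notes, Cell Ranger 7.2.0 and mm10 were used. The authors deposited unnormalized UMI counts for every gene in each called cell. The Cell Ranger version counts intronic reads by default, and whether this was kept, and how strand was used, is not given in the sources used here. *Atf3*, *Jun*, *Junb* and *Zfp36* overlap an antisense gene in GENCODE vM21, so their values carry that uncertainty.

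The study's cell limits were applied (1000 to 6000 genes, 1000 to 25000 UMIs, less than 8% of UMIs mitochondrial). The study reported fewer cells of each genotype after excluding low-quality cells, so its cell set was not reproduced exactly. Clusters (scanpy 1.11.5, Leiden resolution 0.3, 3000 variable genes, 30 principal components, 20 neighbors) were made without the 10 members and the listed genes. They were named from marker lists by a rule set after the data were seen. Classes other than FAP-like needed at least 3 markers, and 50% of their list, at 2-fold and 10% detection. The FAP-like name had no fold test. It went to clusters that met no other class, with at least 3 FAP markers at 25% or more of their highest cluster level. Clusters whose second class reached 75% of the share of the first were left unnamed. Scrublet doublets (1.65% to 2.56% of kept cells) were removed only as an alternative. For each class, the UMIs of a library were added up and compared by edgeR 4.0.16 in R 4.3.3 (quasi-likelihood test, TMM, filterByExpr, Benjamini-Hochberg adjustment, threshold 0.05). The fits were tested on simulated data. DESeq2 1.42.0 was an alternative. CPM values and shares were computed from the same counts. Other settings were no gene filter, a mean of at least 10 CPM, RLE factors, looser cell limits (500 to 7500 genes, 500 UMIs or more, less than 15% mitochondrial), listed genes among the variable genes, each library left out, and the replicate number as a block.

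The members and lists were chosen with earlier results of these data known. All members are named. Of the other lists, called genes and, in FAP-like and myogenic-like cells, the 2 genes per list with the largest absolute log2 fold change at 10 CPM or more are named, together with the 5 genes most like *Fos* and *Btg2*. *Klf2* in smooth muscle or pericyte-like cells, the members' values chosen as examples and *Naca* and *Ddx5* were named after their values were seen.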

Additional observations from a re-analysis of the deposited data

Results flagged for a closer look

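In the fit that set the KO effect of each class against the mean of the other 8, the early gene *Klf4*, which is not among the 10 members, was called in mast-like cells. Its KO effect exceeded the mean of the other classes by 1.29 ± 0.26 on the log2 scale (edgeR adjusted p = 0.0176), with 49.3 and 26.3 CPM in WT and 88.6 and 95.9 CPM in KO. Mast-like cells numbered 59 to 85 per library, and 0.430% of all genes were called in that contrast. The summed FAP markers in these cells moved the same way (943 and 702 CPM in WT, 2458 and 2311 CPM in KO), and their part was not tested.

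Neutrophil-like cells, which numbered 104, 60, 25 and 25 and were not tested, moved opposite to other classes for 5 members. Over the 3702 genes with enough UMIs in these cells, 18.9% were lower and 19.5% higher in both KO libraries than in both WT libraries, so the 4 members that were lower and the 1 that was higher are read against these shares. *Btg2* was lower in both KO libraries (757 and 779 CPM in WT, 550 and 395 CPM in KO, a log2 ratio of means of -0.70), whereas both KO libraries were higher in 8 tested classes. These levels rest on 436, 218, 79 and 60 *Btg2* UMIs. *Zfp36* (-0.60), *Junb* (-0.46) and *Egr1* (-0.38) were likewise lower in both KO libraries and *Fosb* (0.21) was higher, each against 2 or 3 tested classes that were separated the other way. The difference between the classes was not tested for any of these 5 genes. The summed FAP markers in neutrophil-like cells were 6668, 4097, 13992 and 5650 CPM.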

How the results depend on the processing

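Of 315 alternative values, 258 kept their direction and their side of the threshold or, for values with no direction or no test, stayed close to the reported value (a count within 1.5 times, any other value within 1 SD). Of these, 5 changed sign: the summed member level in myogenic-like cells (0.036 with TMM-scaled library sizes) and the thinned share with *Fos* there (-1.60 percentage points, KO minus WT, and -6.57 to 3.38 without 1 library), each of which also changed sign without WT replicate 1 and without KO replicate 2. Counts of calls moved most. Without a gene filter, edgeR called 555 genes in the classes other than FAP-like and myogenic-like cells in place of 20, 3 pairs of a member and a class in place of 1, 4 pairs of a listed gene and a class in place of 0, and 7 members in the test of a class against the other classes in place of 0. A minimum mean of 10 CPM left 13 genes and looser cell limits 11 genes in the other classes, and the looser limits left 0 members. With the myogenic stages in place of the classes 0 members were called. DESeq2 called 2 genes in myogenic-like and 7 in FAP-like cells, where edgeR called 0, 38 genes in the other classes and 2 members (*Btg2* in FAP-like and in smooth muscle or pericyte-like cells). Leaving out each library gave 0 to 3 genes in myogenic-like cells (3 without WT replicate 2), 0 to 8 in FAP-like cells (8 without KO replicate 1), 292 to 474 in the other classes, 2 to 3 members, 4 to 13 listed genes and 0 to 1 members against the other classes (1 without KO replicate 1). In these fits the lone library of a genotype is assumed to vary like the other genotype. The cause of these shifts was not tested.

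The *Btg2* call in smooth muscle or pericyte-like cells held in every other fit, at adjusted p from 7.91e-11 to 0.0336. The count of classes in which both KO libraries had more *Btg2* was 8, and it was 6 with looser cell limits, 7 without Scrublet doublets or with the listed genes in the clustering, and 8 or 9 without any one library.

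Signs in myogenic-like cells changed with the library left out: log2 fold changes ranged from -0.23 to 0.31 for *Fos*, -0.35 to 0.17 for *Fosb*, -0.20 to 0.12 for *Jun*, -0.12 to 0.19 for *Junb*, -0.29 to 0.12 for *Egr1*, -0.36 to 0.23 for *Nr4a1*, -0.10 to 0.26 for *Ier2* and -0.27 to 0.23 for *Zfp36*. In FAP-like cells they did so for *Fosb* (-0.072 to 0.091) and *Nr4a1* (-0.014 to 0.33). The summed level of the members, KO over WT on the log2 scale, was 0.18 in FAP-like cells (0.13 to 0.22), -0.01 in myogenic-like cells (-0.25 to 0.19) and 0.08 in all kept cells (0.014 to 0.14, lowest without KO replicate 1). Shares of cells with a UMI depended on depth. The KO minus WT difference for *Fos* in FAP-like cells, 3.60 percentage points, was 5.16 at 1000 UMIs, 0.938 without thinning and 4.51 without Scrublet doublets. For *Btg2* it was 11.0 in FAP-like and 7.28 in myogenic-like cells and 3.44 and 1.83 without thinning.

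Replicate numbers are shared by the genotypes, but the labels tie them to no litter, batch or day. The replicate difference correlated between WT and KO from 0.03 (chondrocyte-like) to 0.39 (FAP-like) over genes. With the replicate block edgeR called 35 genes in myogenic-like and 0 in FAP-like cells, 274 in the other classes, 4 members (*Btg2* in myogenic-like cells, at a log2 fold change of 0.34 and an adjusted p of 0.0292, and *Btg2*, *Zfp36* and *Ier2* in smooth muscle or pericyte-like cells) and 5 listed genes.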

Other observations

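The FAP-like class was made of 4 clusters, and *Btg2* was higher in both KO libraries than in both WT libraries in each of them. A cluster led by *Grm8*, *Hpse2* and *Smoc2* had 409 and 525 CPM in WT and 667 and 663 CPM in KO. A cluster led by *Ccl11* and *Cldn1* had 505 and 612 CPM in WT and 829 and 838 CPM in KO. A cluster led by *Ly6a*, *Wnt2* and *Pi16* had 463 and 501 CPM in WT and 771 and 641 CPM in KO. In a cluster led by cell-division genes such as *Plk1* and *Aspm* the values were 393 and 437 CPM in WT and 607 and 615 CPM in KO. *Fos*, *Atf3*, *Ier2* and *Zfp36* were also higher in both KO libraries in each of the 4 clusters, whereas *Junb*, *Jun*, *Egr1*, *Fosb* and *Nr4a1* were not so in every cluster. The clusters come from the same 4 libraries and are not independent repeats. The share of all genes separated in each of the 4 clusters is not given here. For *Fos* the gap was narrowest in the dividing cells (1567 and 1697 CPM in WT, 1746 and 1846 CPM in KO).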
